A study of Homo sapiens with 14 samples.

Results

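SULF2, LRRC58, TMEM123, GALNT1, EMP2, PECAM1, IGFBP4, ENAH, MICAL2 and PLXND1 are 10 of the 58051 genes counted in MM1.S and H929, 2 cell lines from human multiple myeloma, in which ZBP1 was depleted with 2 short hairpin RNAs. They were chosen on these libraries as lower with the hairpin called shRNA2 than with the hairpin called shRNA1, and were put forward as candidates for an action of shRNA2 outside its target. Their fold changes with the hairpins are therefore a description and carry no test. ZBP1 is a sensor of left-handed (Z-form) nucleic acids. The 14 poly(A)-selected RNA libraries fall into 7 groups of 2, all from cells transduced with lentivirus: MM1.S with scramble control, shRNA1 or shRNA2, and H929 with shRNA1, shRNA2 and a separate scramble group for each. Both lines are tumour-derived plasma cell lines grown in culture, and the labels name no other cells in the cultures. The labels do not state whether the paired libraries of a group are independent cultures, so every p-value below reflects the spread between these libraries alone, which may be technical.

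A short hairpin RNA is cut by the cell into a guide strand that is loaded into an Argonaute protein. Full pairing of the guide with its target leads to cutting of that RNA. Bases 2 to 8 of the guide, called the seed, can also pair with short matches in other RNAs, above all in their 3' untranslated regions (3' UTRs), and lower these RNAs in the manner of a microRNA; this is why a second, unrelated hairpin is used as a control. The 10 genes have different jobs. SULF2 and GALNT1 act on sugar chains, SULF2 by trimming sulfate groups from heparan sulfate outside the cell and GALNT1 by placing the first sugar of mucin-type O-glycans in the Golgi. TMEM123 (porimin), EMP2 and PECAM1 (CD31) are membrane proteins, and PLXND1 is a receptor for semaphorins. IGFBP4 binds insulin-like growth factors, ENAH and MICAL2 act on actin filaments, and LRRC58 is a leucine-rich repeat protein.

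The label of the set, strong fall with shRNA2 only, held in part. In MM1.S all 10 genes were lower in both shRNA2 libraries than in both scramble libraries, where 32.0% of the 17820 genes tested were, and 0 of 10 were lower in both shRNA1 libraries (28.3% of all genes). In H929 the groups did not overlap for 8 genes with shRNA2 (29.8% of the 18213 genes tested). SULF2 and GALNT1 were also lower in both H929 shRNA1 libraries, as 30.1% of all genes were. With shRNA1, 6 of the 10 were above scramble in both MM1.S libraries (40.4% of all genes) and 6 were above it in both H929 libraries (45.4%). So EMP2, ENAH and MICAL2 in both lines, TMEM123, IGFBP4 and PLXND1 in MM1.S, and LRRC58 and PECAM1 in H929 lay below scramble with shRNA2 and above it with shRNA1. All 10 passed the filter on low values in MM1.S and 9 in H929. IGFBP4 did not pass there, and PLXND1 passed only through shRNA1, where it was high, so it had to differ. Because the rule used these comparisons, nothing is read from the counts.

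ZBP1 itself fell with both hairpins, to 18.5% (shRNA1) and 12.4% (shRNA2) of the scramble level in MM1.S and to 45.1% and 36.3% in H929. In MM1.S it was lower with shRNA2 than with shRNA1 by a log2 fold change of -0.56 ± 0.15 (SE; edgeR adjusted p = 0.0222), a call that was lost without shRNA1 replicate 2 or shRNA2 replicate 1 (-0.44 and -0.42, adjusted p = 0.116 and 0.164). In H929 the hairpin effects on ZBP1 differed by -0.31 ± 0.13 (limma adjusted p = 0.0699). Depth was 20.46 to 28.42 M reads in genes in MM1.S and 15.93 to 22.25 M in H929. All 9 plasma cell markers had a mean of at least 5 CPM (reads per 1000000 reads in genes) in each line, and their sum was 4094 to 7298 CPM in MM1.S, lowest with shRNA2, and 7181 to 8469 in H929. PECAM1 is also an endothelial gene, but the 6 endothelial markers VWF, CDH5, KDR, TEK, ERG and EMCN together stayed at 0.175 to 1.51 CPM in MM1.S and 0.055 to 0.314 in H929, with ERG at 0 reads in every library. COL1A1, a fibroblast marker, took most of a fibroblast sum of 29.8 to 35.0 CPM in H929 with shRNA1 against 0.27 to 1.49 in the other H929 libraries; LUM, another of the 5 fibroblast markers, was at 0 reads in all libraries. CD3E led a T cell and myeloid sum of 26 to 33.0 CPM in H929 with shRNA2 against 8.79 to 19 in the other H929 libraries. The part of these markers in the results was not tested.

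A sequence of ZBP1 that 5 of these 10 RNAs hold in the 3' UTR is shown first. It was ranked without the values of the 10 genes. Every 7-letter word was looked for, on the sense strand only, in the 3' UTRs of 14313 tested genes (1 GENCODE 29 transcript a gene, GRCh38). For each of the 14310 words held by at least 200 genes, the mean log2 fold change of genes with the word was set against that of genes without it, after the trend with 3' UTR length was taken out and with the 10 genes left out. The word ATCAACA had the lowest value of all with shRNA2 in both lines. It lies in the coding part of ZBP1, and the seed that would pair with it is UGUUGAU. The ranking was added after the data were seen; the hairpins' own sequences were not used here, so whether shRNA2 carries this seed is not known. Below, the word is in capitals within 10 bases on each side, 5′ to 3′ on the RNA's strand, for ZBP1 and for the 5 genes of the 10 that hold it in the 3' UTR.

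ZBP1, coding part, chr20:57613261-57613287, minus strand: gcacaatccaATCAACAtgatctgcca
SULF2, 3' UTR, chr20:47657746-47657772, minus strand: tttacatgtaATCAACAtgggaacttt
TMEM123, 3' UTR, chr11:102398342-102398368, minus strand: taagaaaaacATCAACAttttttgtgc
GALNT1, 3' UTR, chr18:35711413-35711439, plus strand: gttcaagttaATCAACAtcaagcacat
GALNT1, 3' UTR, chr18:35710055-35710081, plus strand: atgaaaaaaaATCAACAaaatatgctt
EMP2, 3' UTR, chr16:10531734-10531760, minus strand: tcattcattcATCAACAtaaatcataa
ENAH, 3' UTR, chr1:225493017-225493043, minus strand: gatactcaccATCAACAtaaataaatg
ENAH, 3' UTR, chr1:225487457-225487483, minus strand: cttgttttaaATCAACAtactataagc

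The word was present in the 3' UTRs of 8.15% of the tested genes and of 5 of these 10. In 6 of the 7 sites shown outside ZBP1 the next base was also that of ZBP1, a T, and in SULF2 the shared run was 10 bases, AATCAACATG. Outside the 10 genes, 367 of 1083 genes with the word tested in MM1.S and 385 of 1101 in H929 had it with this T. Their median log2 fold changes with shRNA2 were -0.36 and -0.31, beside -0.33 and -0.26 for all genes with the word. PECAM1 and PLXND1 had the word in the coding part only, as did TMEM123 and ENAH besides their 3' UTR sites; 16.4% of tested genes had it in the coding part. LRRC58 and PECAM1 each had 2 copies of its last 6 bases, TCAACA, in the 3' UTR, a shorter match that 26.5% of tested 3' UTRs hold. These were:

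LRRC58, 3' UTR, chr3:120328896-120328921, minus strand: cagtattattTCAACAaaatgttatg
LRRC58, 3' UTR, chr3:120324814-120324839, minus strand: gcaacatgatTCAACAatttttatat
PECAM1, 3' UTR, chr17:64321016-64321041, minus strand: gacgcttaggTCAACAttcactcact
PECAM1, 3' UTR, chr17:64320756-64320781, minus strand: gtctgtttgcTCAACAagcttgtgct

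IGFBP4 and MICAL2 had neither in the transcript used; 5 of MICAL2's 36 annotated isoforms hold the word. For the genes shown above the word was also in some isoforms and not in others, counted anywhere in the transcript and not in the 3' UTR alone. The isoforms with it were 5 of 12 for SULF2, 6 of 8 for TMEM123, 2 of 6 for GALNT1, 1 of 3 for EMP2 and 4 of 9 for ENAH. The word is not the one that most of the 10 genes share. Of the other words of the ZBP1 transcript, CAAAATG and CTAAAAA were each in 8 of the 10 3' UTRs (19.2% and 22.8% of all), and the overlapping TCAACAT was in 6 (10.6%). The 3' UTRs of the 10 are long, with a median of 2297.5 bases against 1062 in all tested genes, and long 3' UTRs hold more of any word. ENAH, LRRC58, PECAM1 and EMP2 also shared runs of 36, 33, 28 and 26 bases with the 3' UTR of ZBP1. Over tested genes the median is 12, and 6.56% share a run of 26 or more. The cut of 26 is the shortest of the runs just listed, so nothing is read from this share. None of 2370 mature miRNAs in RefSeq's table has UGUUGAU at bases 2 to 8.

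**Figure D1:**
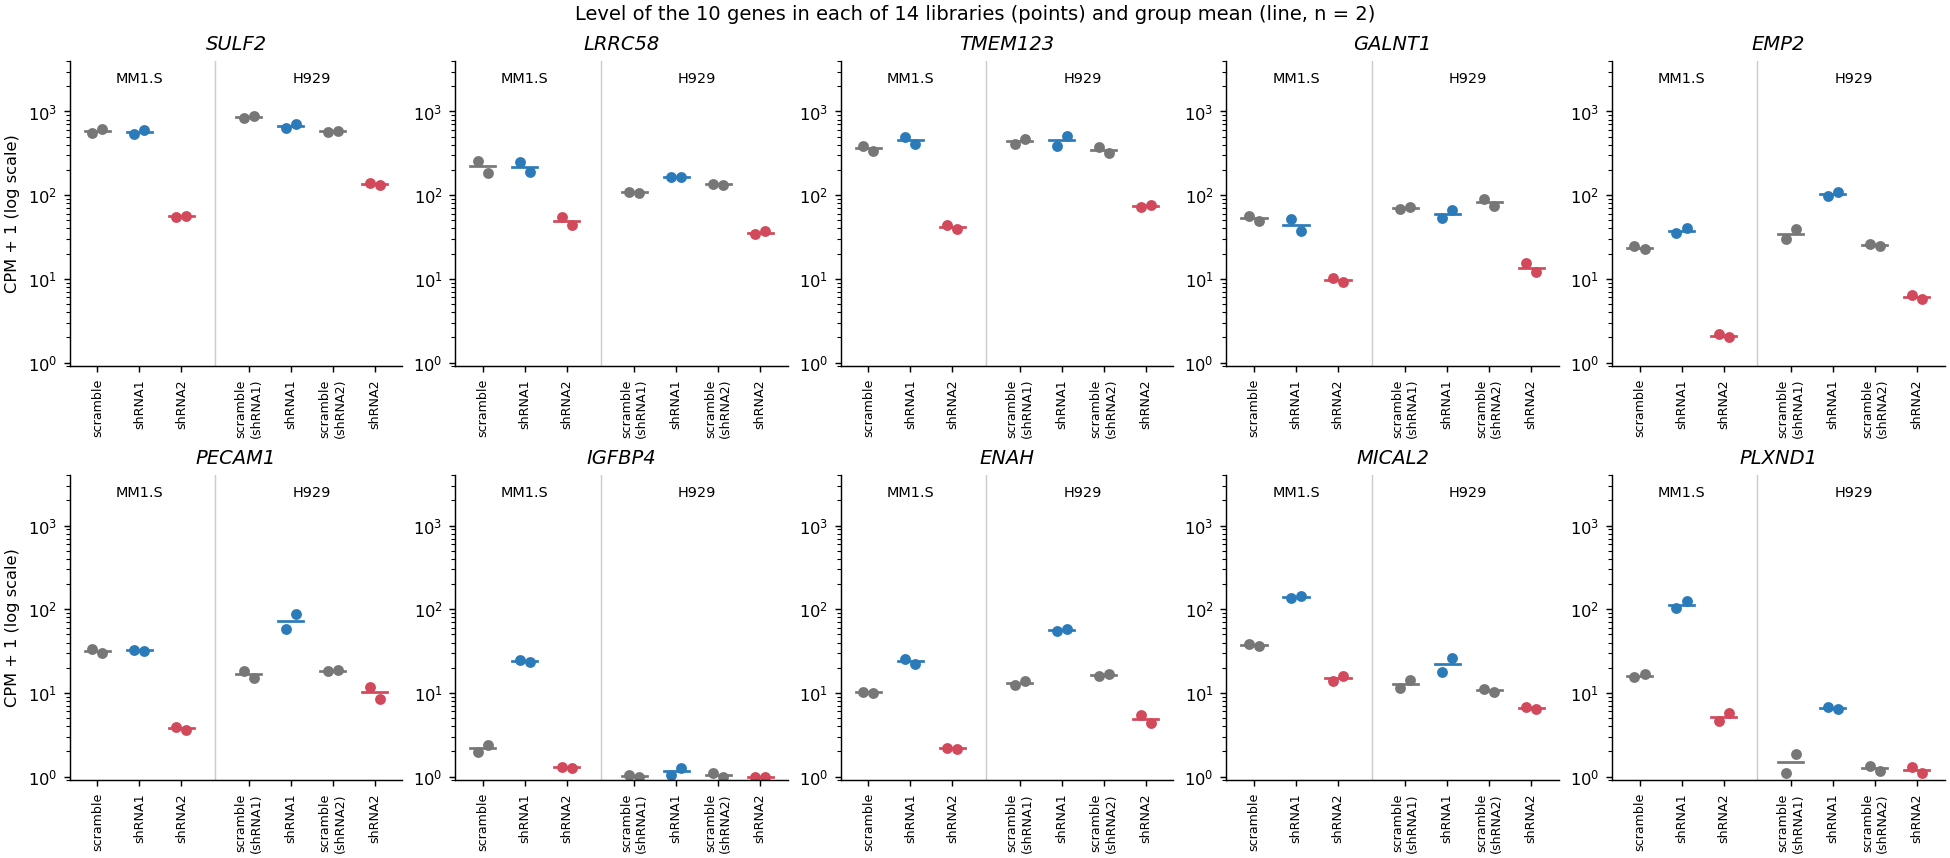
Level of each gene in each library (points; y axis, CPM + 1 on a log scale) with the group mean (line, n = 2), MM1.S on the left of each panel and H929 on the right. In MM1.S the shRNA2 points lie below the scramble points in all 10 panels; in H929 IGFBP4 and PLXND1 lie near 0 outside shRNA1.

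SULF2 and GALNT1, the enzymes of sugar chains, were both far lower with shRNA2 in both lines. SULF2 stood at 549 and 625 CPM in MM1.S scramble, at 536 and 600 with shRNA1, and at 54.0 and 55.8 with shRNA2. Its H929 scramble libraries for shRNA1 had 824 and 891 and those with shRNA1 634 and 705, against 570.5 and 591 in those for shRNA2 and 139.9 and 131 with shRNA2. The shRNA2 libraries were far below all others in both lines, and shRNA1 was below its scramble in H929 but overlapped it in MM1.S. The log2 fold change with shRNA2 was -3.52 ± 0.14 (SE, n = 2 against 2, as below) in MM1.S and -2.26 ± 0.09 in H929, and with shRNA1 it was -0.16 ± 0.13 and -0.52 ± 0.09. In this bulk RNA, fewer cells expressing a gene and less of its RNA per cell cannot be told apart. GALNT1 stood at 56.1 and 48.0 CPM in MM1.S scramble, 50.6 and 36.0 with shRNA1, and 9.25 and 8.23 with shRNA2. Its H929 levels were 67.8 and 71.1 against 51.9 and 65.4 with shRNA1, and 89.1 and 73.5 against 14.3 and 11 with shRNA2. Its shRNA2 fold changes were -2.68 ± 0.19 in MM1.S and -2.84 ± 0.13 in H929, the 29th lowest of 18213 fold changes in H929 and the 374th lowest of 17820 in MM1.S. With shRNA1 the values were -0.38 ± 0.18 and -0.41 ± 0.13.

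TMEM123, a mucin-like protein of the cell surface linked to a form of cell death, kept its level with shRNA1 and lost most of it with shRNA2. It had 389.8 and 335 CPM in MM1.S scramble, 496 and 409 with shRNA1, and 43.3 and 38.3 with shRNA2. In H929 it had 407 and 468 against 387 and 513 with shRNA1, and 377 and 318 against 71.9 and 74.9 with shRNA2. The shRNA1 libraries overlapped their scramble libraries in H929 and lay above them in MM1.S. The shRNA2 fold changes were -3.26 ± 0.16 and -2.39 ± 0.11, beside 0.20 ± 0.14 and -0.13 ± 0.11 with shRNA1. EMP2, a tetraspan membrane protein that affects integrins at the surface, moved both ways. It stood at 23.4 and 21.4 CPM in MM1.S scramble, 34.1 and 39.0 with shRNA1, and 1.18 and 1.00 with shRNA2, which are 27 and 25 reads. In H929 it went from 28.5 and 38.5 to 96.9 and 107 with shRNA1, and from 24.8 and 23.8 to 5.45 and 4.76 with shRNA2. Its shRNA2 fold change of -4.46 ± 0.19 in MM1.S was the lowest of the 10 and the 21st lowest of all genes; it was -2.40 ± 0.14 in H929. With shRNA1 it was 0.59 ± 0.15 and 1.46 ± 0.14.

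PECAM1, an adhesion molecule of endothelial and blood cells, binds CD38, a surface enzyme of plasma cells. In MM1.S it had 32.9 and 29.3 CPM with scramble, 31.3 and 31.1 with shRNA1, and 2.94 and 2.65 with shRNA2. In H929 it had 17.5 and 14 against 56.3 and 86.4 with shRNA1, and 17.1 and 17.6 against 10.7 and 7.55 with shRNA2. The shRNA1 libraries lay within scramble in MM1.S and far above it in H929. The fold changes were -0.12 ± 0.14 and 1.99 ± 0.19 with shRNA1, and -3.58 ± 0.16 and -1.10 ± 0.19 with shRNA2. PLXND1, a semaphorin receptor of vessel growth and axon guidance, was far higher with shRNA1 in both lines. Its MM1.S levels were 14.3 and 15.7 CPM with scramble, 101 and 124 with shRNA1, and 3.6 and 4.70 with shRNA2. In H929 its reads numbered 2 and 15 against 105 and 87 with shRNA1, and 6 and 3 against 6 and 2 with shRNA2. The last 2 groups overlapped, so no fall with shRNA2 was detectable in H929 at this depth (-0.51 ± 0.65). With shRNA1 the H929 value was 3.64 ± 0.65, and the authors' deposited table gives 2.5 for it. In MM1.S the fold changes were 2.79 ± 0.18 with shRNA1 and -1.95 ± 0.19 with shRNA2.

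IGFBP4, which holds insulin-like growth factors away from their receptor, was nearly silent except in 1 group. In MM1.S it had 27 and 39 reads with scramble, 576 and 457 with shRNA1, and 7 and 7 with shRNA2, or 0.990 and 1.37, 23.6 and 22.3, and 0.307 and 0.281 CPM. Its fold changes there were 4.16 ± 0.21 and -2.09 ± 0.29. In H929 no library had more than 4 reads, and both shRNA2 libraries had 0, which allows up to 3 reads or 0.154 and 0.135 CPM; this limit covers counting error only, and no fold is given. The gap between the hairpins in MM1.S was thus mostly the higher level with shRNA1.

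ENAH, which speeds the growth of actin filaments at the leading edge, was above scramble with shRNA1 and below it with shRNA2 in both lines. It had 9.17 and 9.11 CPM in MM1.S scramble, 24.6 and 21.4 with shRNA1, and 1.18 and 1.16 with shRNA2. In H929 it had 11.3 and 12.8 against 54.4 and 57.4 with shRNA1, and 15 and 15.8 against 4.47 and 3.37 with shRNA2. The 3 kinds of library did not overlap in either line. The fold changes with shRNA2 were -3.06 ± 0.18 and -2.13 ± 0.15, and with shRNA1 they were 1.21 ± 0.15 and 2.05 ± 0.15. MICAL2, an enzyme that oxidizes actin and so drives its disassembly, had 37.5 and 34.9 CPM in MM1.S scramble, 135 and 141 with shRNA1, and 12.85 and 14.9 with shRNA2. In H929 it had 10.5 and 13.4 against 16.8 and 25.4 with shRNA1, and 10.1 and 9.37 against 5.70 and 5.35 with shRNA2. Its shRNA2 fold changes were -1.48 ± 0.14, the smallest of the 10 in MM1.S, and -0.97 ± 0.18, and those with shRNA1 were 1.81 ± 0.14 and 0.64 ± 0.18. LRRC58 had 258 and 182 CPM in MM1.S scramble, 245 and 188 with shRNA1, and 53.3 and 43.1 with shRNA2. In H929 it had 109 and 105 against 163 and 162 with shRNA1, and 137 and 132 against 32.9 and 35.9 with shRNA2. Both replicates 1 in MM1.S scramble and shRNA1 were above both replicates 2, and shRNA2 was below all of them. Its fold changes with shRNA2 were -2.30 ± 0.21 in MM1.S and -2.12 ± 0.08 in H929, and shRNA1 gave -0.14 ± 0.20 and 0.44 ± 0.08.

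**Figure D2:**
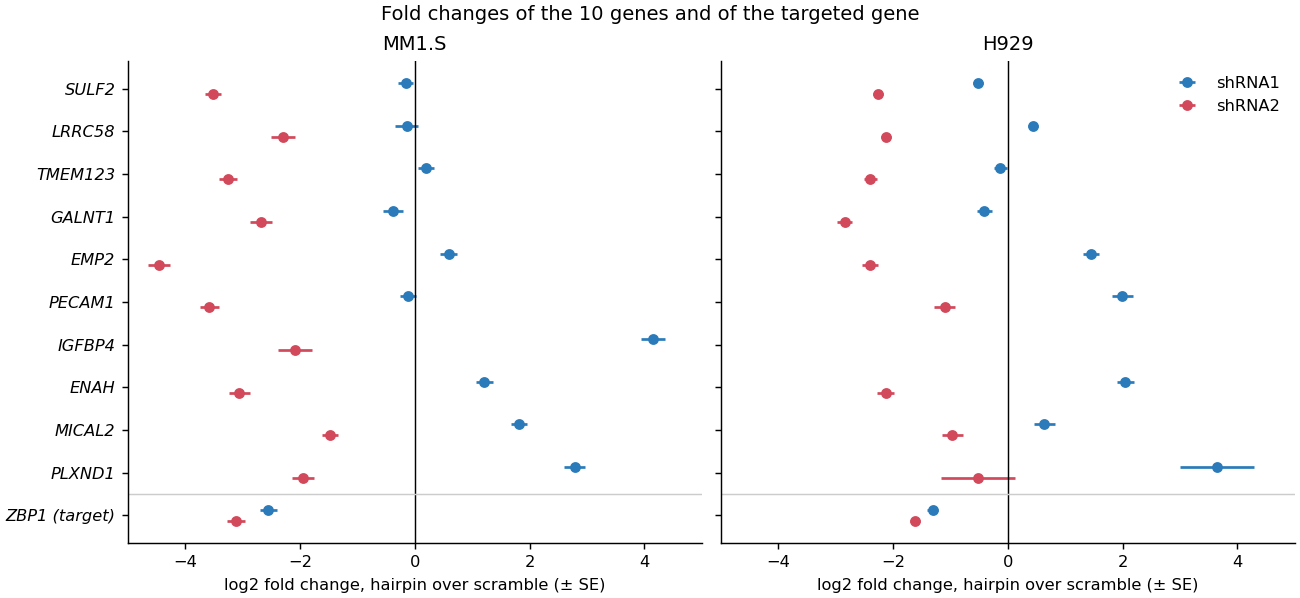
Log2 fold change (x axis, ± SE) of each gene and of ZBP1 against scramble, shRNA1 in blue and shRNA2 in red, MM1.S left and H929 right. With shRNA2 all points lie below 0, from -4.46 to -1.48 in MM1.S for the 10 genes; with shRNA1 ENAH, EMP2, MICAL2 and PLXND1 lie above 0 in both lines. IGFBP4 was not tested in H929.

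Over the members tested, the median log2 fold change with shRNA2 was -2.87 in MM1.S (10 genes) and -2.13 in H929 (9 genes), beside -0.03 and -0.02 over all genes; with shRNA1 it was 0.40 and 0.64, beside 0.00 and -0.01. The MM1.S comparisons share their scramble libraries. Directly against shRNA1 in MM1.S, shRNA2 gave -2.16 ± 0.21 for LRRC58, the member with the smallest gap, and -6.25 ± 0.25 for IGFBP4, the 8th lowest of all genes. Among genes with a mean of at least 5 CPM in MM1.S, FOS (-6.79) and MMP9 (-5.46) had wider gaps than EMP2 (-5.05) without being among the 10, and TGFBR3 (-4.79) stood next to PLXND1 (-4.74). In H929 the difference of hairpin effects ran from -1.61 ± 0.26 for MICAL2 to -4.18 ± 0.21 for ENAH. For comparison, in the authors' deposited table for MM1.S shRNA2 the log2 fold changes of the 10 genes ran from -4.16 (EMP2) to -1.44 (MICAL2), and in the authors' deposited table for H929 shRNA2 from -2.77 (GALNT1) to -0.21 (IGFBP4).

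Beyond the 10 genes, genes with ATCAACA in the 3' UTR had a lower median with shRNA2 than genes without it, and a higher one with shRNA1. In MM1.S the median log2 fold change with shRNA2 was -0.33 over 1083 genes with the word and -0.04 over 12065 without, and in H929 it was -0.26 over 1101 and -0.05 over 12445. With shRNA1 the medians were 0.07 and -0.05 in MM1.S, and 0.13 and -0.04 in H929. The share of genes called lower with shRNA2 (edgeR in MM1.S, limma in H929) was 38.9% with the word and 24.6% without in MM1.S, and 42.9% and 29.1% in H929. The word was picked as the lowest of the 14310 words with shRNA2 in MM1.S on these same genes. Its lower MM1.S values with shRNA2 therefore follow from that choice and are no further support. These are descriptions across genes, which are not replicates, and no test was made.

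After the trend with 3' UTR length was taken out, genes with the word differed from the others by a mean of -0.26 in MM1.S and -0.19 in H929 with shRNA2, the 1st of 14310 words in both. With shRNA1 the word ranked 6735th and 8567th, at 0.01 and 0.03. The next word in MM1.S was GGCTCGA, at -0.18, which ranked 1994th in H929. The one after it, AATCAAC, overlaps the first word and was 6th lowest in H929, at -0.12. In H929 the second was TCAACAA, at -0.13, again overlapping. In a split into 3 classes of 3' UTR length of like size, also added after the data were seen, genes with the word were lower in each class. Among the shortest 3' UTRs (up to 583 bases) the shRNA2 medians were -0.59 with the word (54 genes) and -0.01 without in MM1.S, and -0.40 (61 genes) and -0.04 in H929. In the middle class they were -0.39 and -0.04, and in H929 -0.39 and -0.05. Among the longest (over 1788 bases) they were -0.27 and -0.06, and -0.22 and -0.04.

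A word in the coding part went with a smaller shift. Genes with it in the coding part and not in the 3' UTR, the class of PECAM1 and PLXND1, had shRNA2 medians of -0.14 in MM1.S and -0.13 in H929, beside -0.02 and -0.03 for genes with it in neither place. Genes with only the last 6 bases in the 3' UTR, the class of LRRC58 and PECAM1, were at -0.15 and -0.13. Genes with 2 or more copies, the class of GALNT1 and ENAH, were at -0.38 and -0.26, close to -0.33 and -0.26 for genes with 1 copy. All 5 members with the word in the 3' UTR thus lay far below the median of their class: their shRNA2 fold changes ran from -4.46 to -2.68 in MM1.S and from -2.84 to -2.13 in H929, as their choice for a strong fall requires. LRRC58, without the full word, was at -2.30 and -2.12. Whether any of these RNAs pairs with the hairpin was not tested.

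**Figure D3:**
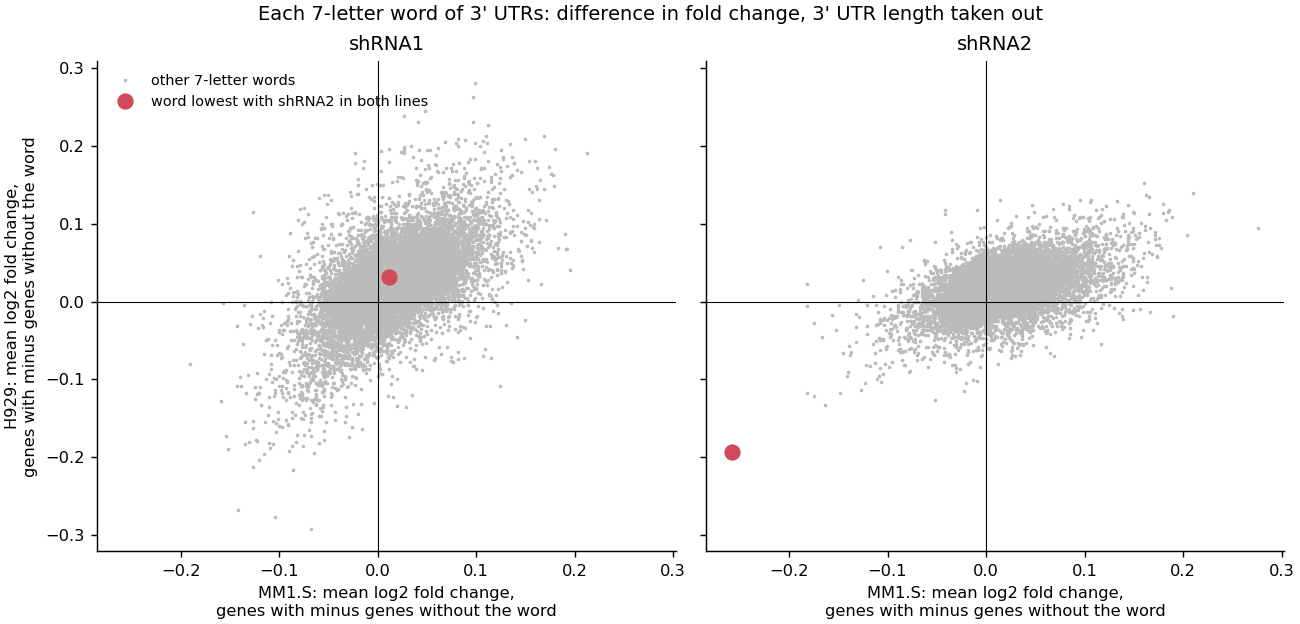
Each point is a 7-letter word held by at least 200 of the tested 3' UTRs; axes give the mean log2 fold change of genes with the word minus genes without it in MM1.S (x) and H929 (y), 3' UTR length taken out, the 10 genes left out. With shRNA2 (right) the marked word lies at -0.26 and -0.19, apart from the cloud of other words. It was picked as the lowest word with shRNA2 in MM1.S, so its place on that axis follows from the choice. With shRNA1 (left) the marked word lies within the cloud.

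**Figure D4:**
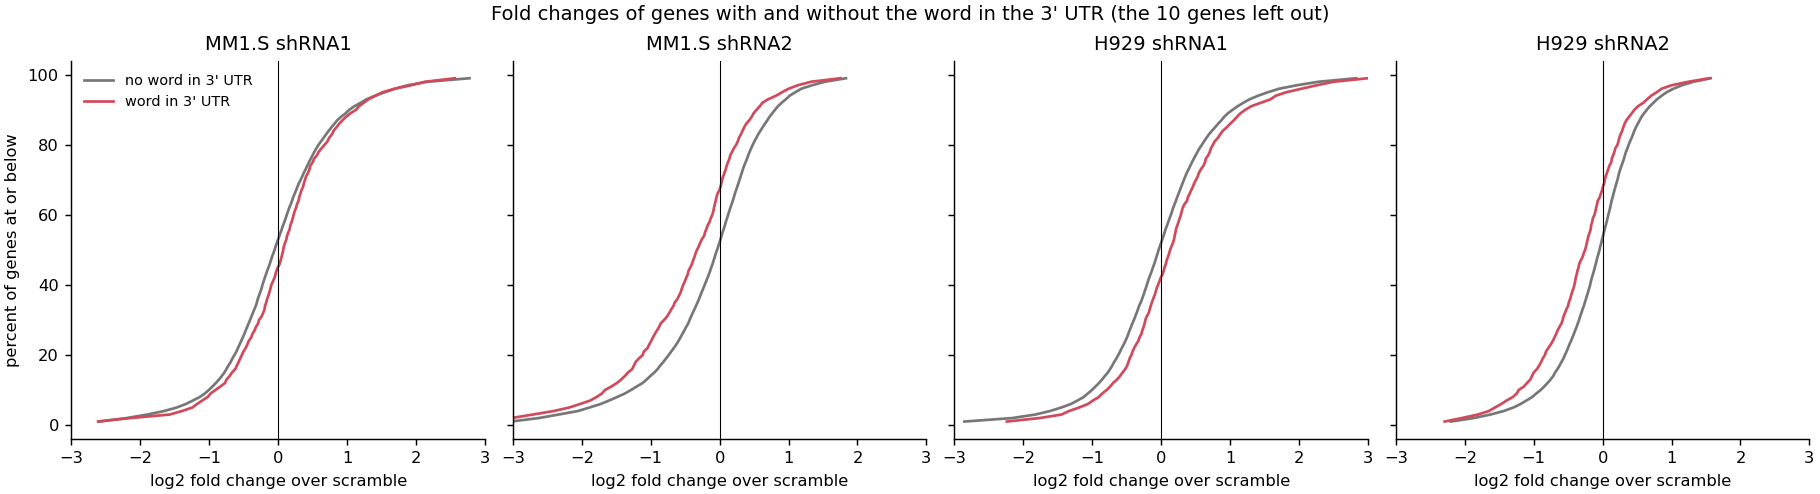
Percent of genes (y) at or below a log2 fold change over scramble (x, shown from -3 to 3) for genes with (red) and without (grey) that word in the 3' UTR. The red curve lies to the left with shRNA2 in both lines, with medians of -0.33 and -0.26, and slightly to the right with shRNA1. The word was picked for its low value with shRNA2 in MM1.S.

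The genes with the most similar pattern over the 14 libraries, by Pearson's correlation of log2 values centred within each line with the mean of the 9 members tested in both lines, were KCMF1 (0.991), GDF11 (0.987), SLC41A1 (0.987), CGN (0.982), FAF2 (0.981) and ALAD (0.981), out of 9800 genes. The points share libraries, and the correlation is a description. GDF11, SLC41A1, FAF2 and ALAD have 1 copy of the word in the 3' UTR and KCMF1 and CGN have none, where 8.15% of tested genes hold it. These genes were picked for following the members, which fall with shRNA2. The word was picked for its low value with shRNA2 in MM1.S on genes that included them, so nothing is read from this. The log2 fold changes of the most similar genes with shRNA2 ran from -0.85 ± 0.12 (FAF2) to -3.67 ± 0.23 (CGN) in MM1.S. In H929 they ran from -0.73 ± 0.09 (FAF2) to -1.81 ± 0.12 (CGN). With shRNA1 they ran from 0.08 (CGN) to 0.18 (KCMF1) in MM1.S and from 0.12 (SLC41A1) to 1.00 (CGN) in H929. Among the 9 members, correlation with the mean of the other 8 was highest for EMP2 (0.989) and lowest for PLXND1 (0.794).

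To see whether relatives of the members moved too, 112 genes of 7 families and pathways were examined, members left out. With shRNA2 against scramble, 37 of the 96 tested in MM1.S fell (38.5%, against 21.7% of all genes called lower) and 9 rose (14.9% of all genes); in H929 43 of 98 fell (43.9%, against 25.0%) and 10 rose (18.0%). With shRNA1 more rose than fell: 14 fell and 31 rose in MM1.S (19.7% and 17.8% of all genes), and 31 fell and 39 rose in H929 (27.7% and 25.7%). Directly between hairpins in MM1.S, 49 were lower and 8 higher with shRNA2 (20.4% and 16.4% of all), and in H929 the difference of hairpin effects was below 0 for 48 and above it for 15 (21.9% and 20.0%). Calls are at an adjusted p under 0.05, by edgeR in MM1.S and limma in H929. With the replicate number as a block in MM1.S, 22 fell and 53 rose with shRNA1 (30.9% and 28.4% of all genes under the same block), 25 rose with shRNA2 (26.8% of all genes) and 15 were higher in the direct comparison (28.7%). The block thus raised the calls over all genes as well. The counts of genes that rose with shRNA2 hung on single libraries: without scramble replicate 1, shRNA2 replicate 1 or shRNA2 replicate 2 in MM1.S they were 3, 4 and 3, and without scramble replicate 2, shRNA2 replicate 1 or shRNA2 replicate 2 in H929 they were 5, 6 and 3. Without MM1.S shRNA1 replicate 1, 9 fell with shRNA1.

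Of the insulin-like growth factor genes around IGFBP4, 5 of 12 fell and 1 rose with shRNA2 in MM1.S, and 5 fell and 2 rose of 13 in H929. IGF2R, which clears IGF2 from the surface, followed the members' pattern in both lines: 285 and 335 CPM with MM1.S scramble, 489 and 554 with shRNA1, and 125 and 125 with shRNA2. Its fold changes were 0.63 ± 0.13 and -1.41 ± 0.13 in MM1.S (edgeR adjusted p = 0.00695 and 0.00021), and 0.87 ± 0.11 and -1.57 ± 0.11 in H929 (limma adjusted p = 5.7e-06 and 2.3e-08). IRS1, an adaptor of the receptor, fell with shRNA2 by 1.45 ± 0.22 and 0.53 ± 0.13 (edgeR adjusted p = 0.00191, limma adjusted p = 0.00338). IRS2, the related adaptor, instead rose with shRNA1 by 1.02 ± 0.24 and 1.87 ± 0.17 (edgeR adjusted p = 0.0117, limma adjusted p = 1.1e-07) and with shRNA2 in H929 by 0.60 ± 0.17 (limma adjusted p = 0.00823), the last lost without scramble replicate 2 or shRNA2 replicate 1 (adjusted p up to 0.103). Its shRNA2 value in MM1.S was 0.51 ± 0.24 (edgeR adjusted p = 0.124; 1.05e-05 with the replicate block).

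Of the 3 tested relatives of TMEM123 and EMP2 in MM1.S, all 3 fell with shRNA2, as did 3 of 3 in H929. CD164, a sialomucin like TMEM123, fell by 1.61 ± 0.17 and 1.33 ± 0.11 (edgeR adjusted p = 0.00032, limma adjusted p = 1.2e-07), with 0.02 ± 0.16 and -0.19 ± 0.11 for shRNA1. EMP3, of EMP2's family, fell by 2.04 ± 0.35 and 1.04 ± 0.14 (edgeR adjusted p = 0.0033, limma adjusted p = 2.8e-05). Its shRNA1 value in MM1.S was 0.89 ± 0.32 (edgeR adjusted p = 0.058; 7.79e-05 with the replicate block). In the heparan sulfate list of SULF2, 8 of 16 genes fell and 3 rose with shRNA2 in MM1.S, and 8 and 1 of 14 in H929. HS2ST1 and EXT2, which sulfate and build the chain, were lower with shRNA2 in MM1.S by 0.68 ± 0.17 and 0.42 ± 0.11, but leaving out single libraries ended both calls (edgeR adjusted p up to 0.112 and 0.143). In H929 EXT2 fell more with shRNA1, by 1.11 ± 0.11, than with shRNA2, by 0.42 ± 0.11, and the hairpin effects differed by 0.69 ± 0.15 (limma adjusted p = 0.00155), the opposite of the members' order. GLCE, the epimerase of the chain, rose with shRNA1 by 0.88 ± 0.17 and 0.77 ± 0.09 (edgeR adjusted p = 0.00563, limma adjusted p = 4.3e-06).

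In the O-glycosylation list of GALNT1, 7 of 15 genes fell and 1 rose with shRNA2 in MM1.S, and 7 and 2 of 17 in H929. C1GALT1, which adds the second sugar, fell by 1.14 ± 0.18 and 0.51 ± 0.11 (edgeR adjusted p = 0.00211, limma adjusted p = 0.00121). GCNT1, a branching enzyme, gave -0.74 ± 0.20 and -0.87 ± 0.18, the first of them lost without any of 3 single libraries (edgeR adjusted p up to 0.114). GALNT14, a sister enzyme, fell with both hairpins, by 1.28 ± 0.31 and 1.78 ± 0.32 in MM1.S (edgeR adjusted p = 0.0137 and 0.00376) and by 0.58 ± 0.12 and 1.01 ± 0.12 in H929 (limma adjusted p = 0.00064 and 5e-06); without shRNA1 replicate 1 the first was -0.87 (adjusted p = 0.0596).

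Among the adhesion molecules, 4 of 14 fell and 3 rose with shRNA2 in MM1.S (21.7% and 14.9% of all genes). In H929 9 of 15 fell with it (25.0% of all genes). With shRNA1, 2 of 14 fell and 7 rose in MM1.S (19.7% and 17.8% of all genes). In H929 9 of 15 also fell with shRNA1 and 3 rose (27.7% and 25.7% of all genes). The H929 difference of hairpin effects was below 0 for 5 of the 15 and above it for 5. CD38 had 88.1 and 64.2 CPM in MM1.S scramble, 338 and 268 with shRNA1, and 38.1 and 35.2 with shRNA2. It rose with shRNA1 by 1.87 ± 0.19 and fell with shRNA2 by 1.16 ± 0.19 (edgeR adjusted p = 0.00026 and 0.00233). In H929 it fell with shRNA2 by 0.62 ± 0.11 (limma adjusted p = 0.00025), and the shRNA1 value of 0.29 ± 0.11 was lost without scramble replicate 1 or shRNA1 replicate 2 (limma adjusted p = 0.288 and 0.212). ITGA4, an integrin chain, fell with shRNA2 by 0.71 ± 0.13 and 0.73 ± 0.08 (edgeR adjusted p = 0.0038, limma adjusted p = 3.5e-06).

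In the actin list of ENAH and MICAL2, 4 of 19 fell (21.1%) and 1 rose with shRNA2 in MM1.S, and 4 fell and 2 rose in H929, near or below the share of all genes. With shRNA1, 6 fell and 4 rose in MM1.S (31.6% and 21.1%, against 19.7% and 17.8% of all genes). In H929 10 fell and 6 rose with shRNA1 (52.6% and 31.6%, against 27.7% and 25.7%). FLNA, a crosslinker of actin filaments, fell with shRNA2 by 1.59 ± 0.23 in MM1.S (edgeR adjusted p = 0.00155) and by 0.99 ± 0.09 in H929 (limma adjusted p = 3.6e-07), and with shRNA1 too (edgeR adjusted p = 0.0019, limma adjusted p = 4.7e-05). Directly between the hairpins in MM1.S it differed by -0.09 ± 0.23 (edgeR adjusted p = 0.797). LPP, a partner of Ena/VASP proteins, rose with shRNA2 by 1.71 ± 0.19 and 0.85 ± 0.14 and with shRNA1 by 1.52 ± 0.19 and 1.28 ± 0.14 (edgeR adjusted p = 0.00048 and 0.00075 in MM1.S, limma adjusted p = 0.00013 and 9.2e-07 in H929). Its direct difference in MM1.S was 0.19 ± 0.18 (edgeR adjusted p = 0.449). CFL1, cofilin, fell with shRNA1 by 1.16 ± 0.17 and 0.60 ± 0.09 (edgeR adjusted p = 0.00156, limma adjusted p = 1.9e-05) and with shRNA2 by 0.59 ± 0.17 and 0.43 ± 0.09 (edgeR adjusted p = 0.0284, limma adjusted p = 0.00073), the MM1.S shRNA2 call being lost without any of 3 single libraries (edgeR adjusted p up to 0.187). Of the plexins and semaphorins, 6 of 17 fell with shRNA2 in MM1.S, and 7 fell and 3 rose in H929; with shRNA1, 9 and 10 of 17 rose. PLXNA2 rose with shRNA1 by 1.09 ± 0.14 and 2.75 ± 0.22 (edgeR adjusted p = 0.00088, limma adjusted p = 4.7e-08) and fell with shRNA2 in MM1.S by 0.93 ± 0.15 (edgeR adjusted p = 0.00222). Its fall in H929 of 0.81 ± 0.22 was lost without any of 3 single libraries (limma adjusted p up to 0.119). SEMA4B fell with shRNA2 by 0.88 ± 0.17 and 0.81 ± 0.08 (edgeR adjusted p = 0.00562, limma adjusted p = 1.2e-06), the first with an adjusted p of 0.0526 without shRNA2 replicate 1.

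The scramble libraries hold no hairpin against ZBP1. The 2 H929 scramble groups enter the hairpin comparisons on which the genes were chosen, so their difference is given as a description with no p-value. SULF2 was lower in the group for shRNA2, at -0.44 ± 0.09, and LRRC58 and ENAH were higher, at 0.44 ± 0.08 and 0.47 ± 0.15. EMP2 and GALNT1 were at -0.33 ± 0.14 and 0.34 ± 0.13. Over all genes, limma called 13.1% lower and 16.8% higher in the group for shRNA2.

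The level in scramble was compared between the lines, a contrast the choice did not use, although the scramble libraries took part in the choice. There, 5 of 10 members were higher in MM1.S and 3 lower (limma, 14 libraries; 35.2% and 36.9% of all genes were called). PLXND1, IGFBP4 and MICAL2, the 3 with the largest rises with shRNA1 in MM1.S, were higher there than in H929 by 5.51 ± 0.53, 3.97 ± 0.53 and 1.78 ± 0.16. These fold changes are on the log2(value + 1) scale, and MICAL2 had a limma adjusted p of 2.2e-07. IGFBP4 had no more than 4 reads in any H929 library, and PLXND1 no more than 15 in H929 scramble. Both passed the filter only through groups where they were high, so no p is given for them, though both count among the 5 higher members. PECAM1 and LRRC58 were higher by 0.95 ± 0.17 and 0.89 ± 0.14 (adjusted p = 0.00024 and 6.3e-05). ENAH was lower in MM1.S by 0.54 ± 0.14 (adjusted p = 0.00382), and GALNT1 by 0.49 ± 0.16 (adjusted p = 0.0114; 0.118 without MM1.S scramble replicate 2). Against the H929 scramble for shRNA1 alone, both calls were lost (-0.33 and -0.35, adjusted p = 0.0904 and 0.0971). SULF2 gave -0.23 ± 0.09 (adjusted p = 0.0286), a call that was lost without MM1.S scramble replicate 1, or replicate 2 of either H929 scramble group (adjusted p up to 0.202), and that turned to 0.02 against the H929 scramble for shRNA2 alone. TMEM123 (-0.07 ± 0.12, adjusted p = 0.637) and EMP2 (-0.31 ± 0.14, adjusted p = 0.0673) did not pass the threshold; EMP2 did against the H929 scramble for shRNA1 alone (-0.50, adjusted p = 0.0154). Per kilobase of transcript, SULF2 and TMEM123 led in every scramble group, at 119 ± 10.9 and 101 ± 10.8 CPM per kb in MM1.S (SD, n = 2), and IGFBP4 was last, at 0.537 ± 0.123. LRRC58, GALNT1 and MICAL2 followed in MM1.S at 27.9 ± 6.75, 13.5 ± 1.49 and 11.9 ± 0.591, the last pair within their spread of each other, then PECAM1 and EMP2 at 4.55 ± 0.364 and 4.31 ± 0.263, also within it, PLXND1 at 2.12 ± 0.142 and ENAH at 0.694 ± 0.003.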

How the data were processed

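RNA of 14 libraries was analysed. Per the submitters' processing notes, STAR 2.5.3a and DESeq2 1.24.0 were used on GRCh38 (hg38); the counting tool, annotation and strand setting are not given in the sources used here, and reads from an opposite-strand gene, which SULF2, TMEM123, EMP2, MICAL2 and PLXND1 each overlap, cannot be told apart. The MM1.S table holds raw read counts that the authors deposited. The H929 table that the authors deposited holds signal values: each is a count over its library's size factor. Multiplied back, 100% of values are whole within 0.01. The authors' deposited tables of comparisons give log2 fold changes. Column names not matching a label outright (those of shRNA2, and 1 H929 scramble column) were mapped by elimination. Fold changes of the 10 genes and ZBP1 with shRNA2 differed from the authors' by a median of 0.07 or less (largest 0.54, IGFBP4, with shRNA2). No column of per-sample values was left unused.

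MM1.S was tested with edgeR 4.0.16 (quasi-likelihood, TMM, filterByExpr with a minimum count of 10, all 6 libraries, R 4.3.3). H929 was tested with limma 3.58.1 on log2(value + 1) for genes with at least 10 in 2 libraries, all 8 libraries. The line difference used limma on all 14 after median-of-ratios scaling. Adjusted p (Benjamini-Hochberg) under 0.05 was the threshold. DESeq2 1.42.0 was an alternative. The edgeR and limma fits were checked on simulated data. Chi-square over degrees of freedom between libraries of 1 group was 2.36 to 30.3, above the 1 that counting error gives. MM1.S libraries with the same number deviated together (correlations of 0.571, 0.499 and 0.769 over 11200 genes) and count as paired. The main MM1.S fit had no replicate term, so its p-values and calls leave this pairing out. The fit with the replicate block, given as an alternative, takes it in.

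The members, gene lists and tests were chosen with earlier results of these data known. Named were the members, ZBP1, up to 3 genes per list past the threshold in most comparisons with a mean of at least 5 CPM in a line, and the 6 genes most like the members. FOS, MMP9 and TGFBR3 were named after their values were seen. 3' UTRs and transcripts came from GENCODE 29, the miRNA table from RefSeq; proteins were not used here.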

Additional observations from a re-analysis of the deposited data

Results flagged for a closer look

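With shRNA2 the 9 members tested in both lines had fold changes below 0 in both. With shRNA1 the sign differed between MM1.S and H929 for TMEM123 (0.20 and -0.13), LRRC58 (-0.14 and 0.44) and PECAM1 (-0.12 and 1.99). For each of these, the libraries of 1 line overlapped scramble. Among the relatives of the members, ITGA4, ICAM1, SEMA4B and SEMA3C moved in opposite directions in every library of both lines. The difference between the lines was not tested. With shRNA1, ITGA4 gave a log2 fold change of -0.54 in MM1.S and 0.59 in H929, SEMA3C -1.63 and 0.52, ICAM1 1.75 and -0.59, and SEMA4B 0.95 and -0.27. With shRNA2, ICAM1 gave 0.51 and -0.74. SEMA3C was low in MM1.S scramble, at 1.47 and 0.985 CPM. Leaving out single libraries ended the MM1.S calls of ITGA4 (edgeR adjusted p up to 0.089) and SEMA3C (up to 0.106) with shRNA1, that of ICAM1 with shRNA2 (up to 0.162) and the H929 call of SEMA4B with shRNA1 (limma, up to 0.0771).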

How the results depend on the processing

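The count of related genes that fell with shRNA2 stayed within 1.5-fold of its value under every alternative run in both lines. The replicate block raised the MM1.S counts with shRNA1 to 22 lower and 53 higher, with shRNA2 to 25 higher, and in the direct comparison to 15 higher (the last 2 were 9 and 8 without it), and it raised the calls over all 17820 genes too, for example from 2661 to 4779 higher with shRNA2. No filter gave 14 higher with MM1.S shRNA2. The members' median with H929 shRNA1 was 0.85 with no filter, which lets IGFBP4 in, and 0.45 to 0.91 with a library left out; with H929 shRNA2 it was -2.32 to -2.12. Leaving out libraries gave 9 to 14 lower with MM1.S shRNA1, and 3 to 10 (MM1.S) and 3 to 11 (H929) higher with shRNA2. Calls of members between the H929 scramble groups are not given gene by gene, since those libraries entered the choice of genes. SULF2 between the lines was 0.0153 against the H929 scramble for shRNA2 alone; the cause was not tested. Of 116 calls of single named genes or members, 87 held with each library left out. The 116 include calls of members between the H929 scramble groups and between the lines, with those given no p above. H929 libraries with the same number did not deviate together (correlations of -0.167 to 0.204 over 10944 genes), and the replicate block there ended 1 call, GALNT14's difference of hairpin effects (adjusted p = 0.0536). With shRNA2 in H929, edgeR on the recovered reads called 4283 of 18492 genes lower and 3739 higher, against 4551 and 3274 of 18213 by limma. Counts of 10 reads or fewer, as for IGFBP4 in H929, limit what can be seen.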
